A study of Homo sapiens with 3 samples.

Results

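The KLF family of transcription factors was represented by 6 genes (KLF5, KLF6, KLF10, KLF11, KLF13 and KLF16), which were followed through newly made and steady-state RNA of HEK293T cells. The 6 genes were chosen with earlier results of these data known, and other KLF genes were not counted. Their counts were taken from 1 genomic window per gene, on the gene's strand. All 6 had counts in every library. Their windows held 91 sites of RNA 3′ ends among 779809 nuclear sites in all, and the main end of each belonged to the 10843 sites that averaged at least 10 CPM (counts-per-million of the nuclear total).

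The study asked how structures at RNA 3′ ends bear on processing and stability in mammalian cells. HEK293T is an established human embryonic kidney cell line that carries the SV40 large T antigen, and it was grown in DMEM with 10% serum. The 3 groups were RNA captured after 30 min in 4-thiouridine (4sU 30 min), RNA captured after 60 min (4sU 60 min) and the input, whose title names the 30 min labelling while its treatment field reads none. The nucleoside 4sU enters RNA made while it is in the medium, so captured RNA is enriched for new molecules. The 4sU libraries omitted an initial poly(A) selection, and the sources used here do not say whether the input did. With only 1 library in each group (n = 1), differences could not be checked against replicates and have no p-value. The 30 min input also served as reference for 60 min, and both comparisons with input share that library. Library totals were 14159691 at 30 min, 8926568 at 60 min and 35410931 in input, of which 31.8%, 31.1% and 7.46% were mitochondrial. Levels are CPM of the remaining nuclear counts, and values at 30 min or at 60 min are those of the captured libraries. Intervals in parentheses are 95% intervals of counting error only. They may be too narrow, because amplified reads without molecular identifiers are not independent molecules.

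KLF proteins carry C2H2 zinc fingers near the C terminus that bind GC-rich and CACCC elements, and they differ mostly in the N-terminal regions that recruit coactivators or corepressors. KLF5 and KLF6 are usually described as activators, KLF5 in proliferating epithelia and KLF6 also as a growth-restraining factor. KLF10 and KLF11 were first described as early genes induced by transforming growth factor β, and with KLF13 and KLF16 they can bind the SIN3 corepressor. KLF13 is also known for activating the chemokine gene CCL5 in T lymphocytes, and KLF16 for acting on dopamine receptor genes.

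The promoters of KLF11, KLF16 and KLF5 are shown because these genes had the highest captured level relative to input at 30 min, the highest at 60 min and the lowest at both times. Each is a RefSeq window of 300 bases (GRCh38.p14), 250 before to 50 after a transcription start. The KLF11 window is at chr2:10043971-10044270 on the plus strand, that of KLF16 at chr19:1863530-1863829 on the minus strand and that of KLF5 at chr13:73058755-73059054 on the plus strand. Capitals mark the GC box GGGCGG, the CCAAT box CCAAT, the cyclic AMP response element TGACGTCA and the TATA box TATAAA, on either strand.
KLF11: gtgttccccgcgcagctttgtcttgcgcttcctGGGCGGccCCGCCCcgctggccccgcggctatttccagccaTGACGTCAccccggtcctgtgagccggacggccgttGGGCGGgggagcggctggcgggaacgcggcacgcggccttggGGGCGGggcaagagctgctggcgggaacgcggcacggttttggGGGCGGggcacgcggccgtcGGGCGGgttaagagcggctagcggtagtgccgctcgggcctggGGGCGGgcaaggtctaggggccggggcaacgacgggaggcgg
KLF16: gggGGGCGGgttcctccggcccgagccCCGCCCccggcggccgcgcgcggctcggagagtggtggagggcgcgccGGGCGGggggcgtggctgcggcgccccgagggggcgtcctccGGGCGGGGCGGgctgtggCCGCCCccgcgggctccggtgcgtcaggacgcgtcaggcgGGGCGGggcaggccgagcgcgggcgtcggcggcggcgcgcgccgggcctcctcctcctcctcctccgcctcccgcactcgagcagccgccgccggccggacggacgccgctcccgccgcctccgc
KLF5: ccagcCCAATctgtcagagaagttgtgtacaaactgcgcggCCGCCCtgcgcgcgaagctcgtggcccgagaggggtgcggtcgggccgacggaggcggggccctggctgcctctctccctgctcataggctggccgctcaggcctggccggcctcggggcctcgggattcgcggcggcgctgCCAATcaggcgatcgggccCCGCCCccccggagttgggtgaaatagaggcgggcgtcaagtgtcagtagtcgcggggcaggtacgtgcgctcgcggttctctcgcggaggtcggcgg
The KLF11 window held 7 GC boxes and 1 cyclic AMP response element, the KLF16 window 7 GC boxes, and the KLF5 window 2 GC boxes and 2 CCAAT boxes. No base lay in more than 1 kind of motif, though GC boxes of KLF16 overlap each other. Among 35116 RefSeq windows of this length, 45.0% held a GC box, 34.6% a CCAAT box, 1.85% the cyclic AMP response element and 11.5% a TATA box. Of the 6 genes, 5 had a window in the table, KLF5 and KLF11 with 2 each, of which the downstream one is shown, and 6 of these 7 windows held a GC box. The G and C content of the shown windows was 75.3% for KLF11, 86.0% for KLF16 and 71.3% for KLF5, against a median of 58.7% over all windows. The upstream KLF11 window had 77.3% and 2 GC boxes, and the upstream KLF5 window had 40.7%, no GC box and 1 TATA box. The KLF6 window had 70.7%, 2 GC boxes and 2 CCAAT boxes, close to the shown KLF5 window, although KLF6 was 9.55-fold above input at 30 min. The KLF13 window had 78.3%, 3 GC boxes and 2 CCAAT boxes. A relation of motif counts to levels was not tested. A match is a description of letters and not a bound site.

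All 6 KLF genes were higher in RNA captured after 30 min than in input. Because they were chosen with earlier results of these data known, the number called describes these genes and not the KLF family. A gene was called higher or lower at a ratio of at least 2-fold with an interval that excluded 1. By the same rule 35.3% of the 10843 sites were higher and 17.1% were lower. The ratios of the 6 genes ran from 3.12- to 11.4-fold with a median log2 ratio of 2.97, against a median of 0.37 over all sites. Of the main ends, those of KLF5, KLF6 and KLF13 had under 10 CPM in input and passed the filter on mean CPM through the captured libraries. The gene sums themselves were not filtered. With sites filtered on input alone (at least 5 CPM), 20.7% of 13692 sites were higher at 30 min. With other scalings 26.9% to 28.4% of sites were higher and 24.6% to 26.7% were lower, and all 6 genes were still called higher. Relative to the median of all sites, which removes the scaling, the log2 ratios of the genes were 1.27 to 3.14. Levels are shares of a library's nuclear counts, so a ratio to input compares shares. It does not give the amount of RNA per cell or the number of cells with the RNA.

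Together the 6 windows held 597 CPM at 30 min, 461 CPM at 60 min and 76.8 CPM in input. The counts were 5759, 2837 and 2518. Each RNA molecule gives 1 end whatever its length, so levels are not divided by gene length.

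**Figure D1:**
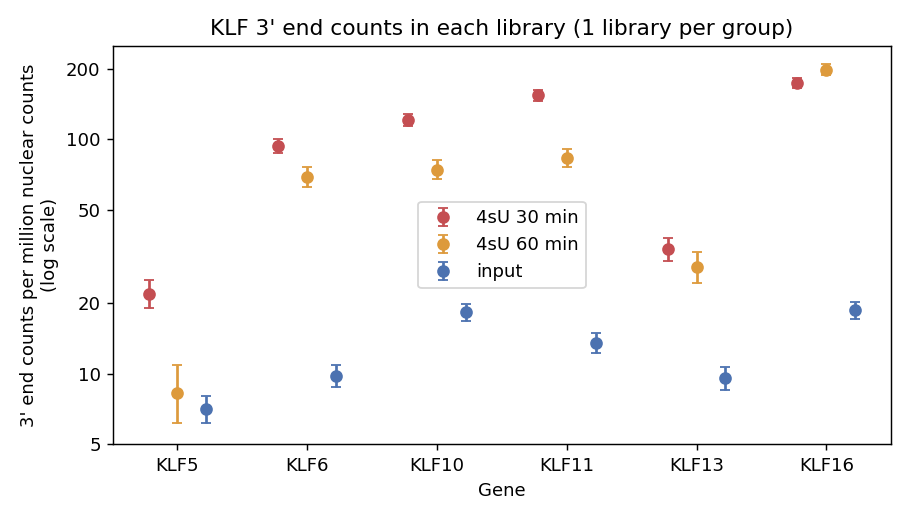
Level of each KLF gene (x axis) in CPM of nuclear counts (y axis, log scale) for 4sU 30 min, 4sU 60 min and input, with 95% Poisson intervals. Input levels lie between 7.05 and 18.6 CPM, and the 4sU 30 min levels between 22.0 and 173 CPM.

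KLF5 (NCBI gene 688), an activator of proliferation genes in epithelia, was the lowest of the 6 in every library. Its window, chr13:73629000-73652200 on the plus strand in hg19 numbering, held 212 counts at 30 min and 51 at 60 min, against 231 in input. These were 22.0 CPM (19.1 to 25.1), 8.29 CPM (6.17 to 10.9) and 7.05 CPM (6.17 to 8.02). KLF5 was 3.12-fold higher than input at 30 min (2.57 to 3.77), and at 60 min its ratio of 1.18 (0.851 to 1.60) had an interval that included 1. It was the only one of the 6 not called higher at 60 min.

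KLF6 (NCBI gene 1316), a widely expressed activator, stood far above input at both times. Its window, chr10:3817500-3827700 on the minus strand, held 903 counts at 30 min and 424 at 60 min, against 321 in input. The levels were 93.6 CPM (87.6 to 99.9), 68.9 CPM (62.5 to 75.8) and 9.80 CPM (8.75 to 10.9). KLF6 was 9.55-fold higher than input at 30 min (8.40 to 10.9) and 7.04-fold at 60 min (6.07 to 8.16). Only 6.77% of sites had a higher ratio than KLF6 at 30 min and 6.94% at 60 min.

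KLF10 (NCBI gene 7071) and KLF11 (NCBI gene 8462) are the pair known as early genes of transforming growth factor β signalling. The KLF10 window, chr8:103660500-103668300 on the minus strand, held 1163 counts at 30 min and 456 at 60 min, against 599 in input. Its levels were 120.5 CPM (114 to 128), 74.1 CPM (67.5 to 81.2) and 18.3 CPM (16.8 to 19.8). Both captured libraries were above input, by 6.59-fold at 30 min (5.97 to 7.29) and 4.05-fold at 60 min (3.58 to 4.59).

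The KLF11 window, chr2:10182900-10195400 on the plus strand, held 1484 counts at 30 min and 513 at 60 min, against 443 in input. Its levels were 154 CPM (146 to 162), 83.4 CPM (76.3 to 90.9) and 13.5 CPM (12.3 to 14.8). KLF11 had the highest ratio of the 6 at 30 min, 11.4-fold (10.2 to 12.7), and 6.17-fold at 60 min (5.42 to 7.02). It was lower than KLF10 in input but higher at 30 min: its ratio to KLF10 was 1.28 (1.18 to 1.38) at 30 min, whereas in input KLF10 was 1.35-fold above KLF11 (1.19 to 1.53).

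KLF13 (NCBI gene 51621), the CCL5 activator of T lymphocytes, was the other member of low captured level. Its window, chr15:31618900-31671000 on the plus strand, held 327 counts at 30 min and 175 at 60 min, against 314 in input. Its levels were 33.9 CPM (30.3 to 37.8), 28.4 CPM (24.4 to 33.0) and 9.58 CPM (8.55 to 10.7). KLF13 was 3.54-fold higher than input at 30 min (3.02 to 4.14) and 2.97-fold at 60 min (2.45 to 3.58). In input its level was close to that of KLF6, with a ratio of KLF6 to KLF13 of 1.02 (0.872 to 1.20), while at 30 min KLF6 was 2.76-fold above it (2.43 to 3.14).

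KLF16 (NCBI gene 83855), a SIN3-binding member known for dopamine receptor regulation, had the highest captured level at both times. Its window, chr19:1851900-1863800 on the minus strand, held 1670 counts at 30 min and 1218 at 60 min, against 610 in input. Its levels were 173 CPM (165 to 182), 198 CPM (187 to 209) and 18.6 CPM (17.2 to 20.2). KLF16 was 9.29-fold higher than input at 30 min (8.47 to 10.2) and 10.6-fold at 60 min (9.64 to 11.7).

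The order of levels differed between libraries. In 4sU 30 min it ran KLF16, KLF11, KLF10, KLF6, KLF13 and KLF5, and every neighbour differed beyond counting error. In 4sU 60 min the order was the same, but KLF11 and KLF10, at a ratio of 1.12 (0.990 to 1.28), and KLF10 and KLF6, at 1.08 (0.940 to 1.23), did not differ beyond it. In input it ran KLF16, KLF10, KLF11, KLF6, KLF13 and KLF5, with KLF16 and KLF10 at a ratio of 1.02 (0.908 to 1.14). Across the 15 pairs of genes, the ratio to input at 30 min differed beyond counting error in 13. Among all pairs of sites with counts in both libraries the share was 89.4%, and at 60 min it was 85.2%, so such differences are not particular to the KLF genes. The exceptions were KLF5 against KLF13, at 0.881 of its ratio (0.692 to 1.12), and KLF6 against KLF16, at 1.03 (0.878 to 1.20). At 60 min 14 of 15 pairs differed, all but KLF6 against KLF11 at 1.14 (0.941 to 1.38).

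At 60 min 5 of the 6 genes were higher than input and 0 were lower, against 27.3% and 21.8% of all sites. The median log2 ratio of the genes was 2.32, and that of all sites was 0.06. With sites filtered on input alone, 13.8% were higher at this time.

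**Figure D2:**
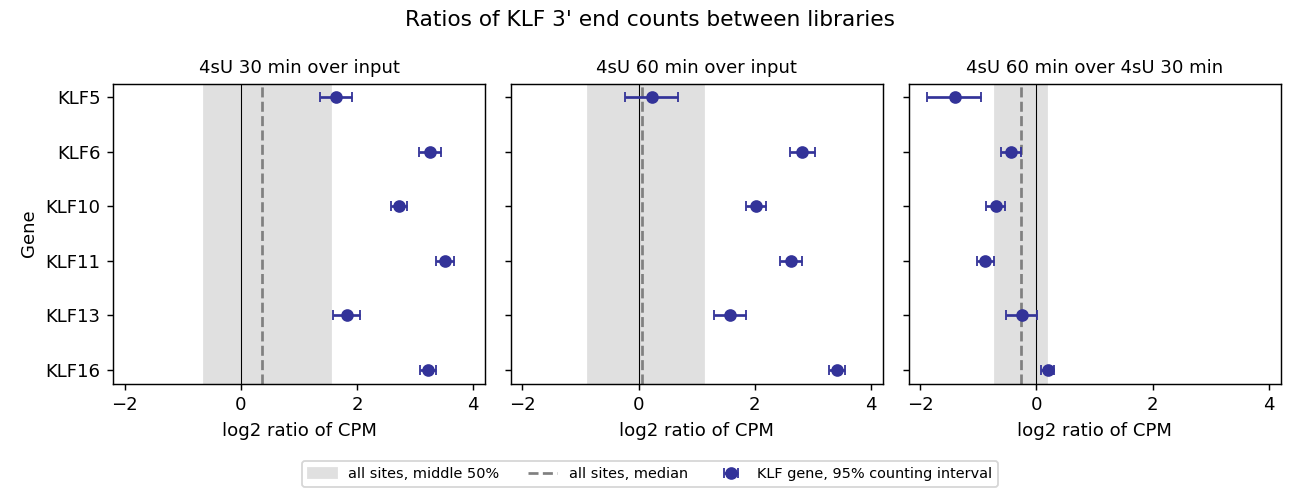
Log2 ratio of CPM (x axis) for each KLF gene (y axis) in 4sU 30 min over input, 4sU 60 min over input and 4sU 60 min over 4sU 30 min. Points have 95% counting intervals, the dashed line is the median of 10843 sites and the grey band their middle 50%. All 6 genes lie right of the band at 30 min, KLF5 lies within it at 60 min, and between the labelling times KLF5 and KLF11 lie left of it and KLF16 just right of it.

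Between labelling times the genes differed in how far their levels moved. KLF5 was the only gene called lower at 60 min than at 30 min, and none was called higher; by the same rule 14.0% of sites were lower and 4.58% higher. KLF5 had 8.29 CPM at 60 min against 22.0 CPM at 30 min, a ratio of 0.377 (0.272 to 0.515). Of all sites, 4.90% had a lower ratio. KLF11 was at 0.542 of its 30 min level (0.490 to 0.600), KLF10 at 0.615 (0.551 to 0.686) and KLF6 at 0.737 (0.655 to 0.828). These 3 genes were below their 30 min level beyond counting error but within 2-fold. The share of all sites below by that rule is not given here. Of all sites, 17.8% had a lower ratio than KLF11, 25.9% than KLF10 and 39.7% than KLF6. KLF13 was at 0.840 (0.695 to 1.01), with an interval that included 1, and KLF16 was above its 30 min level at 1.14 (1.06 to 1.23).

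The median site was itself at 0.831 of its 30 min level, so the genes are also given against that median. On the log2 scale KLF5 lay 1.14 below the median of sites, recorded as -1.14, KLF11 at -0.62, KLF10 at -0.43 and KLF6 at -0.17. KLF13 lay at 0.014 and KLF16 at 0.46. With median-of-ratios scaling or TMM (trimmed mean of M-values) KLF13 turned to just above 1, at 1.03 with the first, while KLF5 stayed lower and KLF16 higher. With median-of-ratios scaling KLF6 no longer differed beyond counting error, at 0.907 (0.806 to 1.02), whereas with TMM its interval of 0.782 to 0.988 still excluded 1. KLF10 and KLF11 stayed below 1 with both scalings, at 0.757 (0.678 to 0.845) and 0.668 (0.603 to 0.739) with the first.

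Each gene had 1 main end, which lay 437 to 1246 nt inside the downstream edge of its window. The main ends were at chr13:73651670 (KLF5), chr10:3818746 (KLF6), chr8:103661013 (KLF10), chr2:10194963 (KLF11), chr15:31670096 (KLF13) and chr19:1852399 (KLF16). Positions within 24 nt of the highest one were merged into a site. Of 91 sites in the windows, 16 had at least 20 counts over the libraries and 9 of these held at least 5% of their gene in a library. No annotation of the numbering of the tables was used here, so ends were not assigned to exons, introns or untranslated regions.

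KLF16 RNA ended almost wholly at 1 site. Outside its main site lay 5 of 1670 counts at 30 min, 6 of 1218 at 60 min and 1 of 610 in input. The shares were 0.299% (0.128 to 0.699), 0.493% (0.226 to 1.07) and 0.164% (0.0289 to 0.923), whose intervals overlap. The other genes had 3.50% to 30.3% of their counts elsewhere.

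KLF13 had counts far from its main end. A second site at chr15:31649712, 20384 nt upstream of the main end, held 42 of 327 counts at 30 min, 48 of 175 at 60 min and 5 of 314 in input. These were 12.8% (9.64 to 16.9), 27.4% (21.4 to 34.5) and 1.59% (0.682 to 3.67) of the gene's counts, and the intervals of the 3 libraries do not overlap. This end reached 5% of the gene only in the captured libraries, so its excess over input follows in part from the choice and is given as a description. Its level was 28.5-fold that of input at 30 min (11.3 to 92.4) and 51.1-fold at 60 min (20.5 to 165). The main end of KLF13 was 3.08-fold above input at 30 min (2.61 to 3.64) and 2.14-fold at 60 min (1.72 to 2.65).

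All counts of the upstream end lay at a pair of adjacent positions, with 32, 32 and 4 counts at the first at 30 min, 4sU 60 min and input and 10, 16 and 1 at the second. At 60 min the upstream end was at 1.79 of its 30 min level (1.16 to 2.78) and the main end at 0.696 (0.558 to 0.865). The lower level of the main end was not beyond counting error with median-of-ratios scaling, at 0.857 (0.687 to 1.06), or with TMM, at 0.831 (0.666 to 1.03), while the upstream end stayed above 1 with both, at 2.21 (1.43 to 3.42) and 2.14 (1.39 to 3.32). The sequence around either end was not used here, so whether the upstream site is a true 3′ end was not tested. Its counts are part of the KLF13 gene sum, which at 60 min was at 0.840 of its 30 min level.

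**Figure D3:**
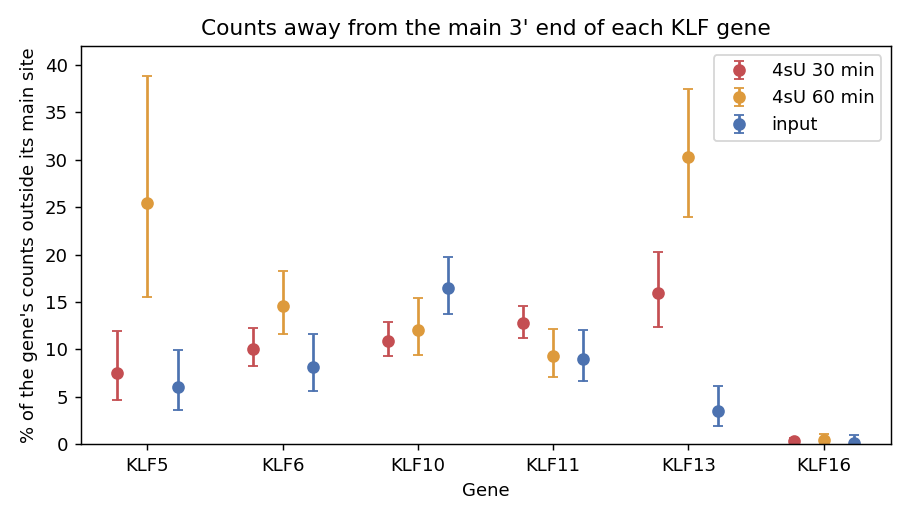
Percent of each KLF gene's counts outside its main 3′ end (y axis) by gene (x axis) and library, with Wilson 95% intervals. KLF13 has 15.9% at 30 min, 30.3% at 60 min and 3.50% in input; KLF16 stays under 0.5% in each library.

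KLF10 used a pair of close ends. The upstream one, at chr8:103661079, lay 66 nt before the main end and held 107 of 1163 counts at 30 min, 48 of 456 at 60 min and 92 of 599 in input. The shares were 9.20% (7.67 to 11.0), 10.5% (8.03 to 13.7) and 15.4% (12.7 to 18.5). The share was lower than in input by 6.16 points at 30 min, recorded as a difference of -6.16 (-9.62 to -2.94), and at 60 min the difference was -4.83 (-8.82 to -0.703). Between labelling times it was 1.33 points (-1.75 to 4.83), within counting error. A further end 423 nt upstream of the main one had 12 counts at 30 min and 5 at 60 min, against 4 in input. Both KLF10 ends were still higher than input at 30 min, the main end 7.03-fold (6.32 to 7.84) and the upstream end 3.95-fold (2.96 to 5.28).

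KLF6 had a minor end at chr10:3818189, 557 nt downstream of its main end. It held 14 of 903 counts at 30 min, 23 of 424 at 60 min and 2 of 321 in input. The share at 60 min was 5.42% (3.64 to 8.01), against 1.55% (0.926 to 2.59) at 30 min, and the 2 counts in input made 0.623% (0.171 to 2.24). This end met the 5% rule only through the 60 min library, so its larger share there follows from the choice and the shares are given as a description. The difference of 30 min from input, 0.927 points (-0.809 to 2.06), was within counting error. The main KLF6 end at 60 min was at 0.699 of its 30 min level (0.616 to 0.793). A further 3 KLF6 ends of at least 20 counts lay 1375, 7091 and 7778 nt upstream of the main end and are named here after their values were seen. The last of them held 28 counts at 30 min and 13 at 60 min, against 7 in input, and was 13.6-fold above input at 30 min (5.80 to 36.8), an interval that covers the 9.34-fold of the main end.

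KLF11 had 3 minor ends of at least 20 counts, each under 5% of the gene and named here after their values were seen. The ends at chr2:10192941 and chr2:10194147 lay 2022 and 816 nt upstream of the main end, and that at chr2:10195057 lay 94 nt downstream. The first held 67 counts at 30 min and 18 at 60 min, against 8 in input, and was 28.4-fold above input at 30 min (13.6 to 68.5), against 10.9-fold (9.74 to 12.2) for the main end. The second held 53, 7 and 15 counts in the same order and was at 0.207 of its 30 min level at 60 min (0.0795 to 0.457), against 0.564 (0.506 to 0.627) for the main end. The third held 55, 20 and 9 counts and followed the main end, at 0.571 (0.324 to 0.967). In total 12.8% of KLF11 counts lay outside the main site at 30 min (11.2 to 14.6), 9.36% at 60 min (7.13 to 12.2) and 9.03% in input (6.70 to 12.1).

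A larger share of KLF5 counts lay outside the main site at 60 min, where the main site held 38 counts against 196 at 30 min. Outside the main site lay 16 of 212 counts at 30 min, 13 of 51 at 60 min and 14 of 231 in input, and none of these sites reached 20 counts. The share was 25.5% at 60 min (15.5 to 38.9), against 7.55% at 30 min (4.70 to 11.9) and 6.06% in input (3.64 to 9.91). The sites named next were picked after their values were seen. Those at chr13:73650193 and chr13:73651259 held 4 and 4 counts at 30 min and 3 and 0 at 60 min, against 6 and 5 in input. Those at chr13:73634244 and chr13:73634464 held 1 and 2 counts at 30 min and 3 and 4 at 60 min, against 0 in input. A count of 0 in input stands for a floor of 3 counts. At the main end alone KLF5 was 3.07-fold above input at 30 min (2.51 to 3.74) and at 0.933 of input at 60 min (0.643 to 1.32). The 60 min value depended on the scaling. With mitochondrial counts in the total it was 0.695 (0.479 to 0.984), below input beyond counting error. With median-of-ratios scaling, at 0.890 (0.613 to 1.26), and TMM, at 0.869 (0.599 to 1.23), the interval included 1. The main end at 60 min was at 0.304 of its 30 min level (0.209 to 0.432).

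Within the main ends, cleavage fell mostly on a few neighbouring nucleotides, and the libraries shared their highest position in all 6 genes. KLF16 was the tightest, with 74.6% of main-site counts at 1 position at 30 min, 75.9% at 60 min and 73.2% in input. Its positions had an SD of 0.698, 0.630 and 0.631 nt. The medians over 4874 sites that averaged at least 30 CPM were 2.55, 2.45 and 2.36 nt in the same order, and 43.2%, 44.6% and 45.9% at the highest position. KLF5 was broader than the median site in every library, with SDs of 3.4, 3.5 and 3.5 nt. KLF13 was broader at 30 min and in input, at 2.68 and 2.78 nt, but not at 60 min, at 2.40 nt. The main sites of KLF6, KLF10 and KLF11 had SDs below the medians.

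KLF5 and KLF13 had main sites with a second cluster of positions at least 4 nt downstream of the first, a split made after the counts were seen. In KLF13 the clusters peaked 5 nt apart, with 134, 71 and 167 counts at the upstream peak at 30 min, 4sU 60 min and input and 88, 29 and 88 at the downstream peak. The downstream cluster held 37.5% of the KLF13 site at 30 min (31.9 to 43.3), 27.0% at 60 min (19.96 to 35.5) and 34.7% in input (29.5 to 40.2). In KLF5 it held 40.3% (33.7 to 47.3), 31.6% (19.1 to 47.5) and 39.2% (32.9 to 45.8). Neither gene differed from input beyond counting error, with differences at 30 min of 1.14 points for KLF5 (-8.23 to 10.5) and 2.80 points for KLF13 (-5.00 to 10.6). Between labelling times the KLF13 cluster had a share of 27.0% at 60 min against 37.5% at 30 min, a difference of -10.4 points (-19.6 to -0.281).

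KLF6 was the only gene of the 6 whose share at the highest position of the main site differed from input beyond counting error, and it was lower. By the same rule 36.8% of the 4874 sites were lower than input at 30 min and 8.27% higher, and at 60 min 23.3% were lower and 11.6% higher, so a lower share is common among all sites. It was 56.9% at 30 min (462 of 812 counts), 57.5% at 60 min (208 of 362) and 66.4% in input (196 of 295). The difference from input was -9.54 points at 30 min (-15.7 to -3.04) and -8.98 points at 60 min (-16.3 to -1.51). The counts lay more often at some flanking nucleotides. The position 2 nt downstream, picked after its values were seen, held 6.40% at 30 min, 4.97% at 60 min and 2.03% in input. Its intervals at 60 min (3.17 to 7.72) and in input (0.935 to 4.37) overlap. The position 2 nt upstream was not higher, at 1.97%, 1.10% and 2.03% in the same order. That 3 nt upstream stayed close to input, at 5.30%, 5.52% and 5.08%. In the other 5 genes the differences from input ran from -6.39 to 3.08 points, each with an interval that included 0. KLF11 differed between labelling times, with 45.4% at the highest position at 60 min against 39.7% at 30 min, a difference of 5.65 points (0.437 to 10.9). Between these times 12.8% of all sites were higher and 2.56% lower.

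**Figure D4:**
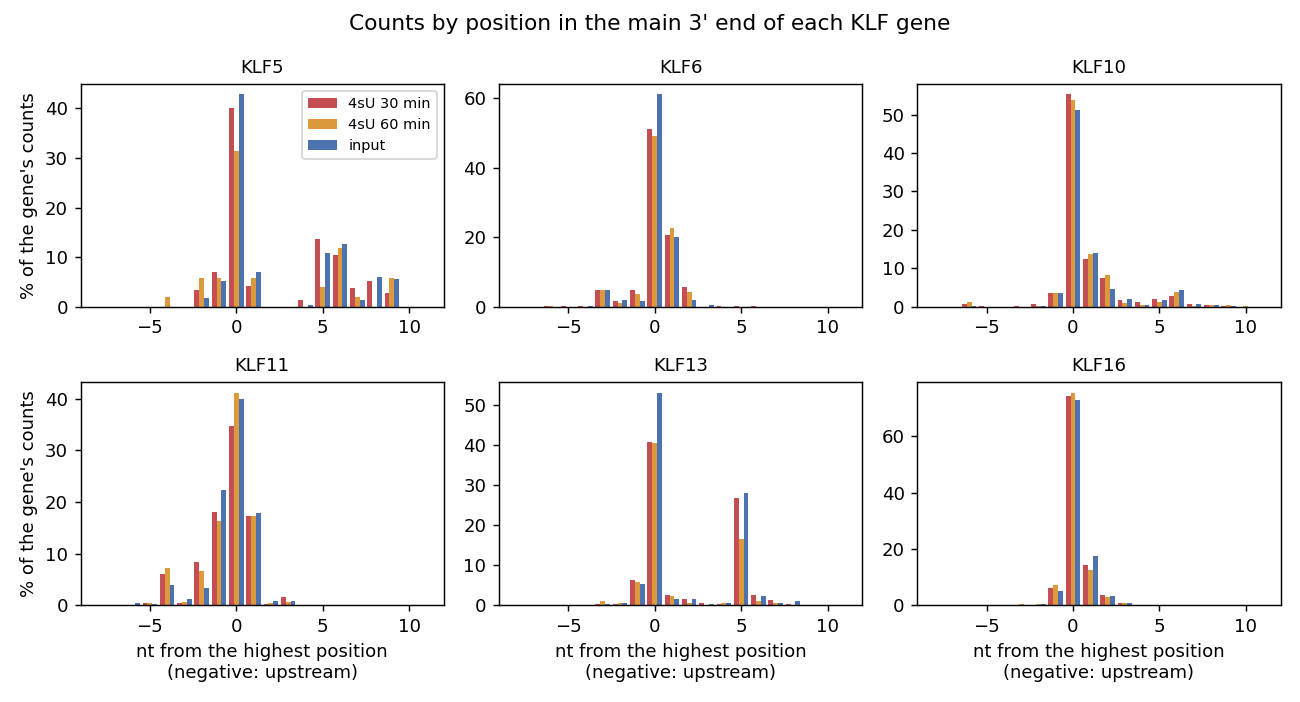
Percent of each KLF gene's counts at each nucleotide (y axis) by distance from the highest position of its main 3′ end (x axis, nt, negative upstream) at 30 min, 4sU 60 min and input. The highest position is shared by all libraries; KLF5 and KLF13 have a second cluster about 5 nt downstream.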

How the data were processed

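The authors deposited raw read counts for each genomic position and strand, 1 table a library, without normalization; all were whole numbers. Per the labels' protocols, the libraries are 2P-seq, an assay of the junction between an RNA and its poly(A) tail. Cutadapt and Bowtie were used, per the submitters' processing notes; the genome build, versions and treatment of multiply mapped reads are not stated in those sources. Counts on chromosome 1 reached position 249223263, with 263 positions past the last gene of the GRCh38.p14 table, so the tables are not in that build. The windows are in hg19 numbering, and positions are printed 1-based as in the tables. Strands were read as those of the RNA itself.

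The nuclear totals were 9652023 at 30 min, 6151986 at 60 min and 32768468 in input. Counts were summed per window and per site merged within 24 nt, and scaled to CPM. Ratios carry exact 95% Poisson intervals by the Clopper-Pearson method, shares carry Wilson intervals, differences of shares carry Newcombe intervals, and ratios between genes carry log-normal intervals. Counts of 0 were treated as at most 3 counts. With 1 library per group no test was made. Python 3.11.15 with scipy 1.17.1 was used, and edgeR 4.0.16 for TMM factors only. All 6 genes are named, and a site is named at 20 counts and 5% of its gene in a library. Alternatives were other scalings, merge distances, filters and window ends and a 1.5-fold call. The genes and the rules were chosen with earlier results of these data known. Without an annotation of this numbering, other KLF and SP genes and cell markers were not analysed here.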

Additional observations from a re-analysis of the deposited data

Results flagged for a closer look

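Counts on the strand opposite to KLF5 and KLF13 lay outside the comparisons, and for KLF5 their level in captured RNA was above that in input. In the KLF5 window there were 11 such counts at 30 min and 17 at 60 min, against 11 in input, or 3.39-fold above input at 30 min (1.33 to 8.63) and 8.23-fold at 60 min (3.64 to 19.4). At chr13:73631072 on the minus strand there were 9, 6 and 8 of them in the order 4sU 30 min, 4sU 60 min and input, and at chr13:73638692 there were 1, 9 and 0. In the KLF13 window there were 3 counts at 30 min and 3 at 60 min, against 0 in input, which is no more than the floor of 3 counts. The KLF6, KLF11 and KLF16 windows had at most 1 opposite count per library, and the KLF10 window had 0.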

How the results depend on the processing

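All 6 genes stayed higher than input at 30 min, and 5 of 6 at 60 min, with every other scaling, with sums over only sites of at least 20 counts or only the highest site, with windows extended by 2000 nt and with a 1.5-fold call. Under these alternatives no called gene reversed its direction. Each alternative was changed alone. With scaling and site changed together, the KLF13 main end at 60 min fell short of the 2-fold call with 2 scalings. It was 1.60-fold above input (1.28 to 1.98) with mitochondrial counts in the total and 1.998-fold (1.61 to 2.47) with TMM. With median-of-ratios scaling it was 2.05-fold (1.64 to 2.53). At 1.5-fold with nuclear CPM, 3 genes (KLF5, KLF10 and KLF11) in place of 1 were lower at 60 than at 30 min. The share of all sites at 1.5-fold is not given here, so this count has no background. With median-of-ratios scaling KLF10 was at 0.757 and KLF11 at 0.668, and with TMM KLF10 was at 0.734, all short of 1.5-fold. KLF11 was only just short there, and with TMM it passed 1.5-fold at 0.648 (0.585 to 0.716). With mitochondrial counts in the total, the 30 min ratios to input were 2.30 for KLF5, 2.60 for KLF13 and 8.38 for KLF11, and with TMM they were 2.43, 2.76 and 8.87. The share of sites higher than input at 30 min was 26.9% with mitochondrial counts in the total, 28.2% with median-of-ratios scaling and 28.4% with TMM. Filtering sites on input, an alternative chosen after seeing the data, gave 20.7% higher at 30 min, 13.8% at 60 min and 2.74% at 60 over 30 min. Other scalings of single ends were also chosen after seeing the data. With a mean CPM of at least 50, 7.10% of sites were lower at 60 than at 30 min. Merging sites within 10 or 50 nt changed no share of a downstream end by more than its interval. No paired analysis was possible because each group has 1 library. KLF5, with 51 counts at 60 min, is the gene whose values depth limits most.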
